A study of Mus musculus with 4 samples.

Results

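Brown fat effector genes were followed across nuclei that the authors labelled as adipocytes in the mouse thymus and in epigonadal fat. The 9 genes, of 32285 in the count matrices, were taken by symbol: the uncoupling protein Ucp1, the lipid droplet protein Cidea, the fatty acid elongase Elovl3, the deiodinase Dio2, the cytochrome c oxidase subunits Cox7a1 and Cox8b, the proton channel Otop1, the potassium channel Kcnk3 and the transcriptional regulator Prdm16. Single-nucleus RNA was profiled from the floating adipocyte layer of digested thymi pooled from 6 naive wild-type male mice aged 4 months, after perithymic fat had been cleaned from the capsule. The same layer of epigonadal white fat came from naive wild-type males aged 4 months, and the sources used here do not give the number of mice behind it. Chromatin accessibility was measured in thymic adipocyte nuclei pooled from 16 naive wild-type females aged 6 months. Each group was 1 library, so no difference below has a replicate check, and no p-value is given.

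Ucp1 sits in the inner mitochondrial membrane, where it lets protons back into the matrix and turns the energy of respiration into heat. Brown and beige adipocytes are defined by it, and their other effectors supply fuel, local thyroid hormone and respiratory chain subunits. Epigonadal fat is a typical white depot, in which these genes are usually low.

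The thymic matrix held 22600 barcodes and the epigonadal matrix 5043, of which the authors' table labelled 365 and 1564 as 1 of 5 adipocyte classes. Class Ad Ia held 35 thymic and 106 epigonadal nuclei, class Ad Ib 49 and 152, class Ad IIa 231 and 590, class Ad IIb 16 and 58, and class Ad IIc 34 and 658. Labelled nuclei had a median of 1479 unique molecular identifiers (UMIs, counted RNA molecules) in the thymus and 966 in epigonadal fat. The other 22235 thymic barcodes had a median of 308 UMIs, of which a median of 69.3% were mitochondrial, and the other 3479 epigonadal barcodes had a median of 794 UMIs and 10.9% mitochondrial. Levels are CPM, counts scaled to 1000000 nuclear-encoded UMIs, and intervals are 95% exact ones that cover counting error only. The libraries shared 147 barcodes, 51 of them labelled in 1 library and 0 in both. A list of 13 adipocyte markers summed to 17897 CPM in thymic Ad Ia and 10089 CPM in Ad Ib, against 21888 and 22677 CPM in the epigonadal classes of the same names, with the leptin gene Lep at 0 UMIs in thymic Ad I (Ad Ia and Ad Ib together). In thymic Ad IIa, the class with most nuclei, the 13 adipocyte markers summed to 12876 CPM and 10 endothelial markers to 11047 CPM. Most of the adipocyte sum there was Fabp4 (8860 CPM), Pparg (2371 CPM) and Lpl (917 CPM), genes that capillary endothelium also expresses, while Adipoq and Plin1 were at 9.96 CPM each. In epigonadal Ad IIa the endothelial markers summed to 8655 CPM and Adipoq was at 449 CPM.

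Promoters were matched for 6 of the 9 members in RefSeq (GRCm38.p6). The 250 bases before the start of Ucp1 (chr8:83290098-83290347, plus strand) and of Dio2 (chr12:90739039-90739288, minus strand) are shown because, of the 6, chromatin around these 2 starts differed most between the thymic adipocyte types. Capitals mark matches to AGGTCA, the core of a nuclear receptor element, and to TGACG, the core of a cyclic AMP response element, on either strand.
Ucp1: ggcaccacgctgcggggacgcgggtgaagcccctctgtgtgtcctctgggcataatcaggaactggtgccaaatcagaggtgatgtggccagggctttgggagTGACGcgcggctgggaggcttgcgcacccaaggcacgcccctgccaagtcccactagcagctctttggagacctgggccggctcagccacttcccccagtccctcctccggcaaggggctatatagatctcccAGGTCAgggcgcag
Dio2: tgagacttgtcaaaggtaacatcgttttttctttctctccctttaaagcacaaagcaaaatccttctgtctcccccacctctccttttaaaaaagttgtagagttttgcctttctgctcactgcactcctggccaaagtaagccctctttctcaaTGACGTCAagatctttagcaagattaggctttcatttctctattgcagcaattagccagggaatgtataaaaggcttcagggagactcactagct
Counted from the first base of the gene as 0, Ucp1 held AGGTCA at -14 and TGACG at -147. Dio2 held TGACG at -95 on the plus strand and at -92 on the minus strand, and these matches overlap. Of 32851 promoter windows in the table, 16.3% held AGGTCA and 20.8% held TGACG, so the matches describe the windows and mark no bound site.

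Ucp1 (ENSMUSG00000031710, chr8:83290348-83298456) had 17 UMIs in labelled thymic nuclei: 7 in Ad IIa, 4 each in Ad Ib and Ad IIc, and 1 each in Ad Ia and Ad IIb. Epigonadal labelled nuclei had 1 UMI, in Ad IIa. The thymic levels ran from 163 CPM (44.3 to 417) in Ad Ib through 73.7 in Ad IIc, 37.0 in Ad IIb and 36.2 in Ad Ia to 17.4 in Ad IIa. With 1 to 7 UMIs a class, the intervals of neighbouring classes in this order overlapped. Of the thymic classes, Ad Ib had the lowest median depth (442 UMIs, lowest nucleus 328) and the highest median mitochondrial share (18.2%). Epigonadal Ad Ib had a median of 678.5 UMIs (lowest nucleus 503) and 5.33%. The part of depth and mitochondrial share in the Ad Ib levels of the members was not tested. The barcodes outside the table held most of the transcript, with 416 UMIs in the thymus (90.4 CPM, 81.9 to 99.5) and 3 in epigonadal fat (0.794 CPM).

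**Figure D1:**
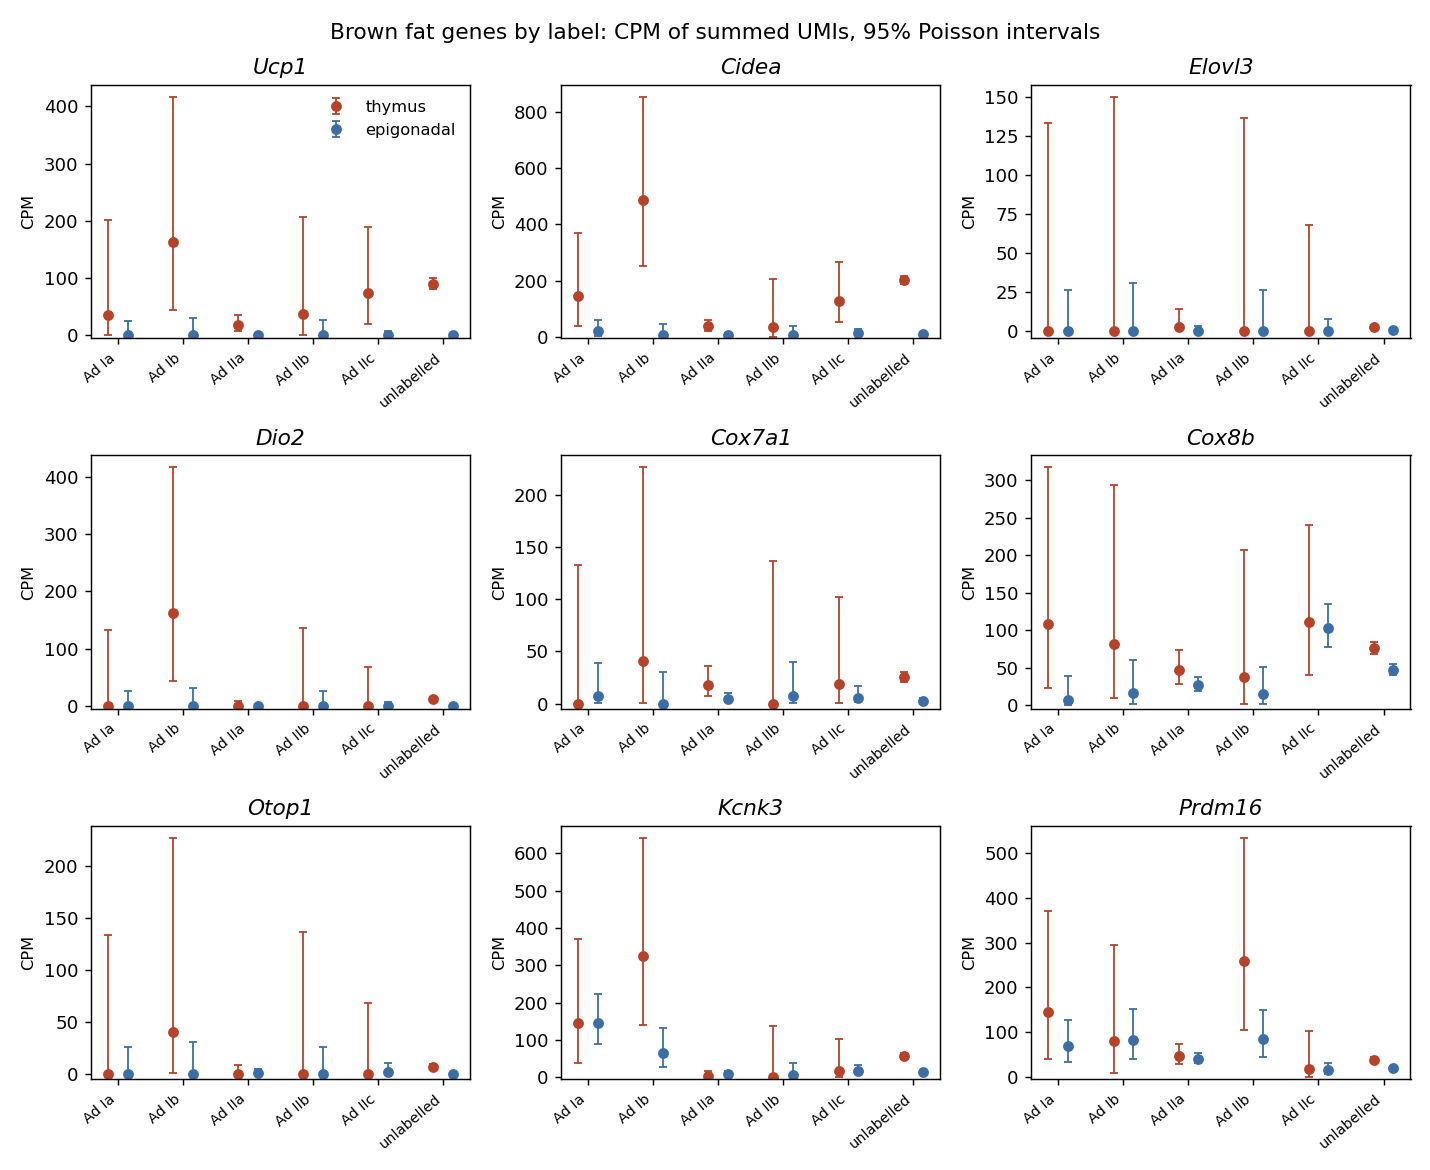
Levels of the 9 genes in CPM of nuclear-encoded UMIs (linear axes, 1 panel a gene with its own scale), by authors' class and in unlabelled barcodes, for the thymic and the epigonadal library; bars are 95% Poisson intervals. Ucp1 and Cidea lie above the epigonadal points wherever the thymic library has UMIs, while Cox8b, Kcnk3 and Prdm16 overlap between depots in most classes.

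Summed over labelled nuclei, 3 of the 6 members with at least 10 UMIs were at least 2-fold higher in the thymus, and 0 were at least 2-fold lower, against 8.12% and 20.2% of 11306 genes. The log2 differences of thymus over epigonadal fat (0.5 UMI added to each sum) were 5.56 for Ucp1 (3.43 to 11.5), 2.82 for Cidea (2.05 to 3.66) and 1.74 for Cox7a1 (0.27 to 3.13). Prdm16 (0.56, -0.07 to 1.14), Cox8b (0.47, -0.18 to 1.06) and Kcnk3 (0.28, -0.69 to 1.10) did not differ beyond counting error. In nuclei of at least 1000 UMIs Kcnk3 turned to -1.40 (3 UMIs against 31). With equal weight per nucleus 6 members were at least 2-fold higher, a count given without the share of all genes. These sums mix the classes in unequal shares, so fewer nuclei of a class and less RNA per nucleus cannot be told apart in them. Other measures moved with the depot as well. The median mitochondrial share was 14.7% in thymic and 5.19% in epigonadal labelled nuclei (17.3% and 4.52% in Ad I). The haemoglobin gene Hbb-bs differed by 4.27, the T cell gene Themis by 3.64 and Adipoq by -4.59. Of the 13 adipocyte markers 12 were at least 2-fold lower in the thymus, and all 3 T cell markers with 10 UMIs were at least 2-fold higher. The part of these in the members' values was not tested.

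Cidea (ENSMUSG00000024526, chr18:67343564-67367794), which promotes lipid droplet fusion, had UMIs in every class of both depots. Its thymic UMIs were 12 in Ad Ib (488 CPM, 252 to 853), 15 in Ad IIa, 7 in Ad IIc, 4 in Ad Ia and 1 in Ad IIb. In epigonadal fat they were 1 in Ad Ib (8.32 CPM), 10 in Ad IIa, 7 in Ad IIc, 3 in Ad Ia and 1 in Ad IIb, from far larger totals. The thymic excess on the log2 scale was 5.35 in Ad Ib (3.12 to 11.3), 3.25 in Ad IIc (1.51 to 4.99) and 2.19 in Ad IIa (0.96 to 3.52). In Ad IIc, Adipoq was at 55.3 CPM in the thymus and 2513 CPM in epigonadal fat. The endothelial gene Flt1 was at 2101 and 124 CPM there, and Hbb-bs at 9085 and 96.9 CPM. Pparg, unlike most adipocyte markers, was higher in thymic Ad IIc (1603 and 356 CPM). The Ad IIc value therefore compares nuclei of unlike marker content. Markers of other cells moved in Ad Ib too, with Themis at 3.03 (1.12 to 5.32) and Flt1 at 1.11 (0.34 to 1.81) among endothelial genes of both signs. Most adipocyte markers were lower there, with Retn at 0 thymic and 72 epigonadal UMIs, Cidec at -3.49 and Fabp4 at -1.24. Of those with at least 10 UMIs, only Lpl (0.57), Plin1 (0.76) and Pparg (1.05) stood above 0. Their part in the Cidea values was not tested.

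Dio2 (ENSMUSG00000007682, chr12:90724552-90739038) activates thyroid hormone inside the cell. Its 4 UMIs in labelled thymic nuclei all lay in Ad Ib (163 CPM), where the epigonadal class had 0. Elovl3 (ENSMUSG00000038754, chr19:46131897-46135694), which lengthens very long chain fatty acids, had 1 UMI in thymic labelled nuclei and 0 in epigonadal ones. Otop1 (ENSMUSG00000051596, chr5:38277404-38304217) had 1 and 2. These counts are too low to compare the depots within the labelled nuclei.

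Kcnk3 (ENSMUSG00000049265, chr5:30588170-30625270) and Prdm16 (ENSMUSG00000039410, chr4:154316122-154637360) were present in both depots. Kcnk3 was at 325 CPM in thymic Ad Ib (8 UMIs, 141 to 641) and 66.5 CPM in epigonadal Ad Ib (8 UMIs), a log2 difference of 2.29 (0.68 to 3.90). In Ad Ia it was at 145 CPM (4 UMIs) and 146 CPM (21 UMIs, 90.5 to 224), a difference of 0.12. Across Ad I it was 230 CPM in the thymus and 110 CPM in epigonadal fat, a log2 difference of 1.10 (-0.04 to 2.08) whose interval includes 0. Prdm16, which directs the brown fat programme, was at 115 and 75.8 CPM in Ad I, a difference of 0.68 (-1.01 to 1.97). Its highest thymic class was Ad IIb, at 259 CPM (7 UMIs, 104 to 534), an interval that overlaps Ad Ia (145 CPM, 39.4 to 370). In thymic Ad IIb the endothelial gene Flt1 was at 2850 CPM (77 UMIs), Fabp4 at 5255 CPM and Adipoq at 37.0 CPM (1 UMI). Which cells held these Prdm16 UMIs was not tested.

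Within Ad I, 3 members reached 10 UMIs over both depots and 2 were at least 2-fold higher in the thymus, Cidea at 4.21 (2.70 to 6.38) and Kcnk3. Over all 5346 genes that reached it, 15.2% were higher and 17.0% lower by this measure. Ucp1 had 5 thymic UMIs (95.7 CPM, 31.1 to 223) and 0 epigonadal ones, for which 3 counts would be 11.4 CPM. In Ad I nuclei with at least 1000 UMIs the difference of Kcnk3 was -0.42 (1 UMI against 15).

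**Figure D2:**
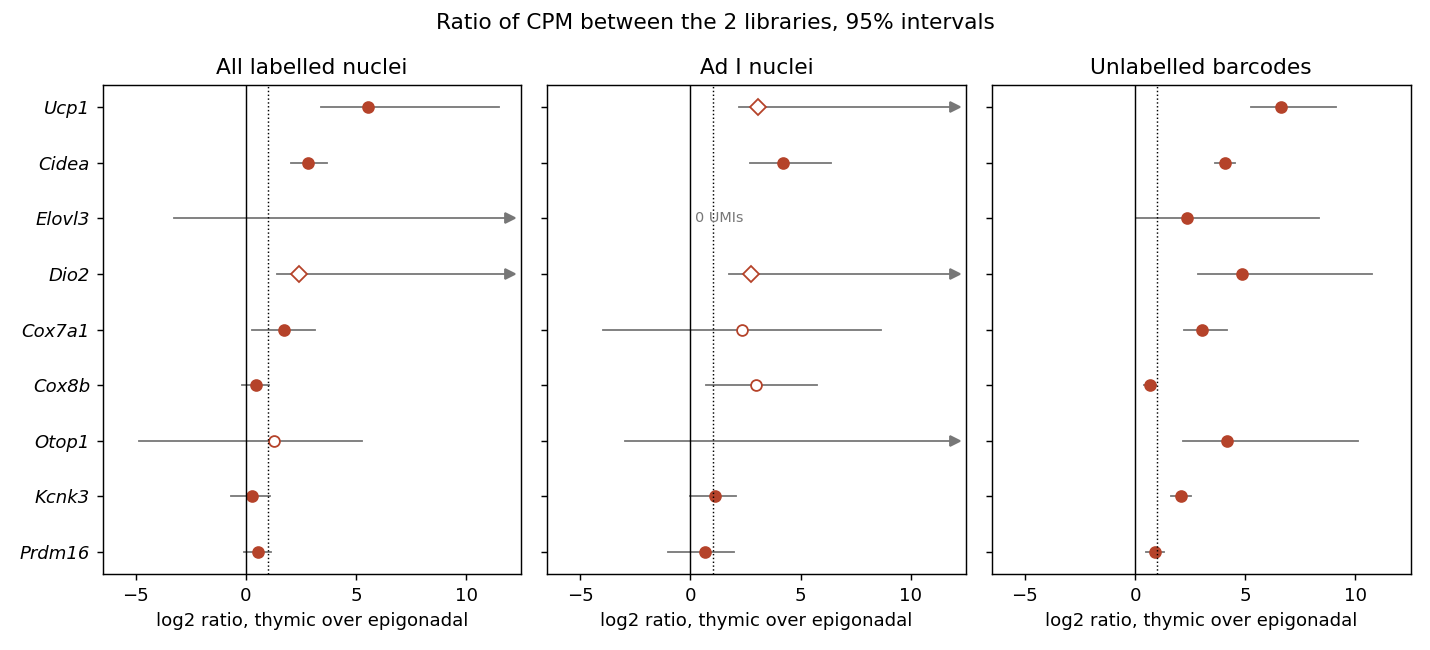
Log2 difference of thymus over epigonadal fat for each member in all labelled nuclei, in Ad I and in unlabelled barcodes, with 95% intervals; open diamonds stand at the limit that a count of 0 allows, open circles have under 10 UMIs over both depots, and the dotted line marks 2-fold. Unlabelled barcodes give the narrowest intervals, from 6.61 for Ucp1 to 0.69 for Cox8b.

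Among barcodes outside the table, 7 of the 9 members were at least 2-fold higher in the thymus, against 11.1% of 14979 genes. Of all genes 22.4% were at least 2-fold lower. All 9 members had an interval above 0, a measure for which the share of all genes was not computed. The differences were 6.61 for Ucp1 (5.27 to 9.11), 4.84 for Dio2 (2.87 to 10.7), 4.20 for Otop1 (2.18 to 10.1), 4.06 for Cidea (3.65 to 4.55) and 3.06 for Cox7a1 (2.22 to 4.16). Elovl3 (2.38, 0.03 to 8.34) and Kcnk3 (2.07, 1.64 to 2.54) followed, and Prdm16 (0.89) and Cox8b (0.69) were less than 2-fold higher. The thymic matrix reached down to barcodes of 230 UMIs and the epigonadal one to 500, and among barcodes with at least 500 UMIs Cox8b turned to -0.57 while Ucp1 was at 5.75. With mitochondrial UMIs kept in the totals Ucp1 was at 5.74, Prdm16 at 0.02 and Cox8b at -0.18. By this total 7 members were at least 2-fold higher, a count given without the share of all genes. Mitochondrial share moved with this result. Thymic Ucp1 was at 116 CPM in 21306 barcodes with at least 20% mitochondrial UMIs, at 19.2 CPM in 908 barcodes with 5 to 20%, and had 0 UMIs in 21 barcodes below 5%, as did the other 8 members. The adipocyte gene Adipoq was at 131 CPM in the first of these classes and 11.3 CPM in the middle one, against 953 and 992 CPM in the same epigonadal classes. The T cell receptor gene Trbc2 was at 427 CPM in thymic and 16.7 CPM in epigonadal barcodes outside the table. In the class with at least 20%, which holds most thymic barcodes, Ucp1 had 394 thymic and 0 epigonadal UMIs, and the log2 difference was 3.35 for Cidea, 3.46 for Kcnk3, 1.82 for Cox7a1, 1.64 for Prdm16 and 1.08 for Cox8b. At 5 to 20% it was 3.59 for Ucp1 (22 UMIs against 3), 1.46 for Cidea (37 against 25), 0.01 for Cox7a1 (3 against 6), -2.83 for Cox8b, -0.97 for Kcnk3 and -0.11 for Prdm16. Below 5% no direction could be read, since 3 counts in the 21 thymic barcodes would be 47.9 CPM, above the epigonadal level of every member. The part of depth, mitochondrial share, T cell RNA and adipocyte content in the result was not tested.

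Thymic Ad I was then set against thymic barcodes outside the table, where 4 of 8 members were at least 2-fold higher, against 37.9% of 13161 genes. Dio2 (2.92, 0.83 to 4.20), Kcnk3 (2.06, 1.04 to 2.84) and Prdm16 (1.69, 0.11 to 2.73) had intervals above 0. The intervals of Ucp1 (0.22, -1.55 to 1.32) and Cidea (0.65, -0.21 to 1.31) included 0, although in Ad Ib alone Cidea stood at 488 CPM (252 to 853), above the 201 CPM (189 to 215) outside the table. Over all labelled thymic nuclei Ucp1 was lower than outside the table by -1.47 (-2.30 to -0.81). T cell markers summed to 440 CPM in thymic Ad I and 4145 CPM in thymic barcodes outside the table, and the second set can include thymocytes. In 1 alternative the unlabelled profile was subtracted from labelled nuclei, scaled by T cell markers. The share taken off was 4.01% in thymic and 3.58% in epigonadal labelled nuclei, and 10.6% and 20.9% in Ad I. Beyond this alternative, how much of the labelled Ucp1 signal is free RNA was not tested.

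Ucp1 UMIs were spread thinly, over 401 thymic barcodes with at most 2 each. The 386 of them outside the table held the other 8 members at 683 CPM (550 to 839), against 411 CPM in the 21849 barcodes without a Ucp1 UMI. Cidea was at 300 against 198 CPM and Cox8b at 158 against 73.4 CPM, while Kcnk3 was at 52.6 against 57.3 CPM. General adipocyte genes were higher in the same barcodes too, with Adipoq at 203 against 96.4 and Cidec at 263 against 138 CPM. T cell markers summed to 2020 against 4208 CPM. Median depth differed too, at 379.5 against 307 UMIs, and mitochondrial share was 58.9% against 69.4%. In the 30 barcodes with 2 Ucp1 UMIs the other members were at 705 CPM (364 to 1232), from 12 UMIs. Among genes with at least 10 UMIs in those 30 barcodes, the highest over barcodes with 0 began with Rgs5 (3.47), Adgrl4 (3.35) and Cdh13 (3.19). Rgs5, with 10 UMIs, marks pericytes and Adgrl4 endothelial cells. The minimum applies to the 30 barcodes alone and Cidea, with 8 UMIs, did not reach it, so the order is a description.

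The oxidase subunits Cox7a1 (ENSMUSG00000074218, chr7:30184171-30186030) and Cox8b (ENSMUSG00000025488, chr7:140898942-140900446) have paralogs used in most tissues, so the share of the brown form within each pair compares depots without a total. Ucp1 made up 53.1% of Ucp1 and Ucp2 UMIs in labelled thymic nuclei (17 of Ucp1 and 15 of Ucp2, 34.7 to 70.9) and 1% in labelled epigonadal nuclei (1 and 99). Cox7a1 was 14.1% of the sum with Cox7a2 in the thymus (9 and 55, 6.64 to 25.0) and 1.77% in epigonadal fat (11 and 610, 0.887 to 3.15). Cox8b was 36.5% of the sum with Cox8a in the thymus (31 and 54, 26.3 to 47.6) and 5.60% in epigonadal fat (91 and 1535, 4.53 to 6.83). All 3 intervals lay apart between depots, although Cox8b itself did not differ by level beyond counting error. The partners were lower in the thymus, by a log2 difference of -2.80 for Cox8a (-3.24 to -2.43) and -1.45 for Cox7a2 (-1.88 to -1.06), which widens both shares. Outside the table the thymic shares were 60.3%, 20.5% and 31.5%, and the epigonadal ones 1.05%, 1.19% and 6.68%.

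**Figure D3:**
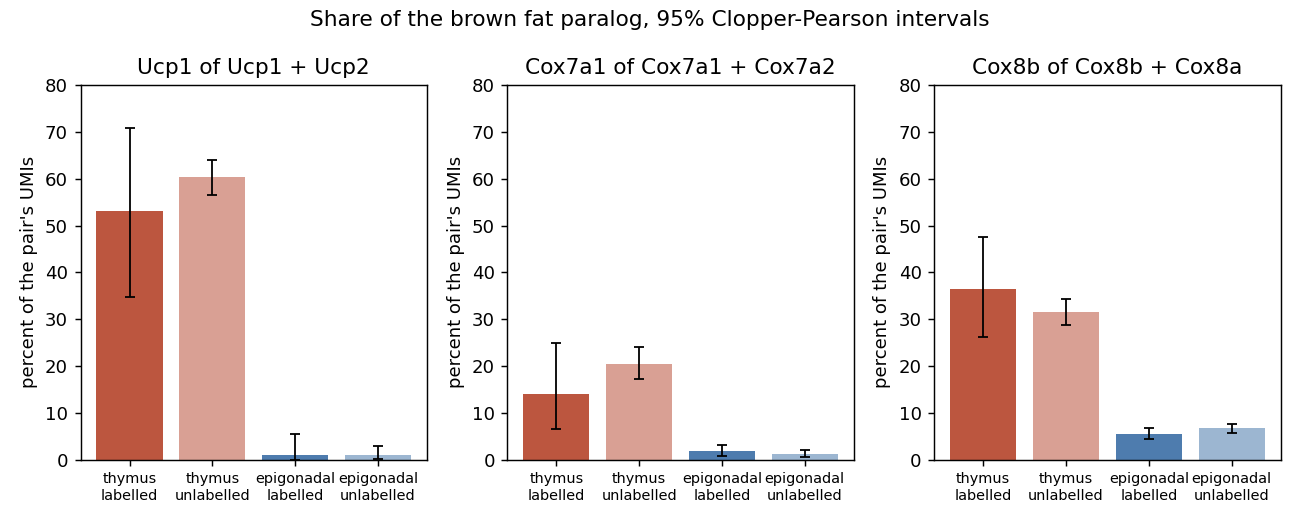
Share of Ucp1, Cox7a1 and Cox8b in the UMIs of each pair of paralogs (percent, from 0), in labelled and unlabelled barcodes of each depot, with 95% exact binomial intervals. Every thymic share lies above the epigonadal one, in labelled nuclei from 14.1% against 1.77% for Cox7a1 to 53.1% against 1% for Ucp1.

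Both oxidase subunits are also the forms of heart and skeletal muscle. Of 8 cardiac markers, 3 had UMIs in labelled thymic nuclei (9.35 CPM), with Myh6, Tnnt2, Actc1, Myl7 and Nkx2-5 at 0, and the same 5 were at 0 in labelled epigonadal nuclei (3.24 CPM). Of 11 skeletal muscle markers, 3 had UMIs in labelled thymic nuclei (16.8 CPM), with Acta1, Ttn and the 4 myosin heavy chain genes of the list at 0, and 7 had UMIs in epigonadal ones (40.3 CPM). Outside the table cardiac markers were at 23.9 CPM in the thymus and 7.94 CPM in epigonadal fat. Their part in the Cox7a1 and Cox8b values was not tested.

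Over 12 profiles (the 5 classes and the unlabelled barcodes of each library), the gene whose log2 CPM followed Ucp1 most closely of 11583 was Cidea, with a Pearson r of 0.931. Pbrm1 (0.848), Trbc2 (0.815), Ikzf5 (0.811) and Kansl1l (0.810) came next, and Trbc2 is a T cell receptor gene at 427 CPM in thymic unlabelled barcodes. Among members, Cox8b ranked 121 (0.659), Dio2 263 (0.584), Cox7a1 1036 (0.350), Prdm16 1801 (0.203) and Kcnk3 2284 (0.135). The profiles share 2 libraries and their depths, so these values are a description.

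The wider thermogenic lists did not all follow the members. Over all Ad I genes 15.2% were at least 2-fold higher in the thymus and 17.0% lower. In Ad I, metabolic genes stood highest by median, with 9 of 14 at least 2-fold higher in the thymus, 0 lower and a median of 1.57 against 0.08 over all genes. In Ad I, Pank1, which starts coenzyme A synthesis, had 26 thymic and 5 epigonadal UMIs (4.60, 3.31 to 6.45), and Cpt1b, which admits fatty acids to mitochondria, had 13 and 0. Of 13 regulators 5 were higher and 1 lower, led by Esrrg (3.36, 29 and 14 UMIs) and Ppargc1b (2.86). Receptors and signalling genes upstream were mixed, with 4 of 12 higher and 2 lower, the latter near the share of all genes. The beta3-adrenergic receptor Adrb3 had 11 thymic and 137 epigonadal UMIs, a difference of -1.24 (-2.34 to -0.42), and the adenylate cyclase Adcy3 stood at 2.78. Of 5 other brown or beige markers 2 were higher, including the amino acid transporter Slc36a2 at 1.96 (1.22 to 2.68), and 1 lower, Sncg, with 0 thymic and 38 epigonadal UMIs. These values are all from Ad I. Over all labelled nuclei, where 8.12% of genes were higher, 20.2% lower and the median was 0.02, the metabolic list went the other way, with 2 of 19 higher, 7 lower and a median of -0.36, Me1 (-2.53) and Pdha1 (-2.21) being lowest. Of the receptors and signalling genes there, Adcy3 (2.19) alone was at least 2-fold higher. More of them were at least 2-fold lower, with Adrb3 (-2.26) and Adcy5 (-2.22) lowest.

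The chromatin library held 146 nuclei labelled thyAD I (1646902 fragments), 140 labelled thyAD II (2189613) and 31 labelled Immune (561387) in the 317 complete rows of the authors' table, and later nuclei were not analysed here. Fragments were counted over each gene body plus 2 kb on each side, as FPM, fragments scaled to 1000000 of the label. The labels may rest on the same fragments, so the values are a description. Of the 9 members 2 were at least 2-fold higher in thyAD I than in thyAD II, against 2.99% of 27863 genes higher and 4.46% lower. All 9 had a log2 difference above 0, 6 of them with the whole interval. Their median was 0.58, against -0.02 over all genes. The shares of all genes above 0, or with an interval above 0, were not computed.

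Ucp1 had 47 fragments in thyAD I (28.5 FPM, 21.0 to 38.0), 13 in thyAD II (5.94 FPM, 3.16 to 10.2) and 4 in Immune nuclei (7.13 FPM). The log2 difference between the adipocyte types was 2.23 (1.36 to 3.28), rank 52 of all genes. These fragments lay in 25 of 146 thyAD I nuclei (17.1%, 11.4 to 24.2) and 13 of 140 thyAD II nuclei (9.29%, 5.04 to 15.4). The intervals of these shares overlap, and the interval of the difference does not allow for several fragments from the same nucleus. Otop1 was next at 1.14 (88 against 53 fragments, 0.64 to 1.66), then Dio2 at 0.85 (61 against 45, 0.27 to 1.44) and Prdm16 at 0.78 (498 against 386, 0.58 to 0.97). Cox7a1, Cox8b, Elovl3, Cidea and Kcnk3 lay between 0.46 and 0.58. The windows of all members but Ucp1 and Otop1 overlap other annotated genes. The 13 adipocyte markers had a median of 0.07, with 0 called in either direction.

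Nearly all of the Ucp1 fragments of thyAD I came from 1 of its 2 joint clusters. Cluster 1, of 85 nuclei, had 45 fragments (40 FPM, 29.2 to 53.6) and cluster 3, of 61 nuclei, had 2 (3.83 FPM, 0.464 to 13.8), a log2 difference of 3.08 (1.45 to 6.48). At least 1 fragment was found in 23 of the 85 nuclei and 2 of the 61, and the cluster totals were 1124353 and 522549 fragments. The joint clusters may rest on the same fragments as well, so these values are a description. The interval does not allow for several fragments from the same nucleus. Of the 9 members 3 were at least 2-fold higher in cluster 1, against 6.24% of 22472 genes: Ucp1, Dio2 (1.19, 51 against 10) and Otop1 (1.14, 73 against 15). Cox8b was the exception in direction, at -0.19. T cell markers moved the same way, with 3 of 6 at least 2-fold higher in cluster 1 and a median of 1.28, against 0.85 for the members. Of 5 thymic epithelial markers 2 were higher (median 0.73), while the 13 adipocyte markers had a median of -0.27 with 0 called. The part of these in the members' values was not tested. One nucleus of cluster 1 held 7 of the Ucp1 fragments, and without it the difference between thyAD I and thyAD II was 2.02 (40 against 13).

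**Figure D4:**
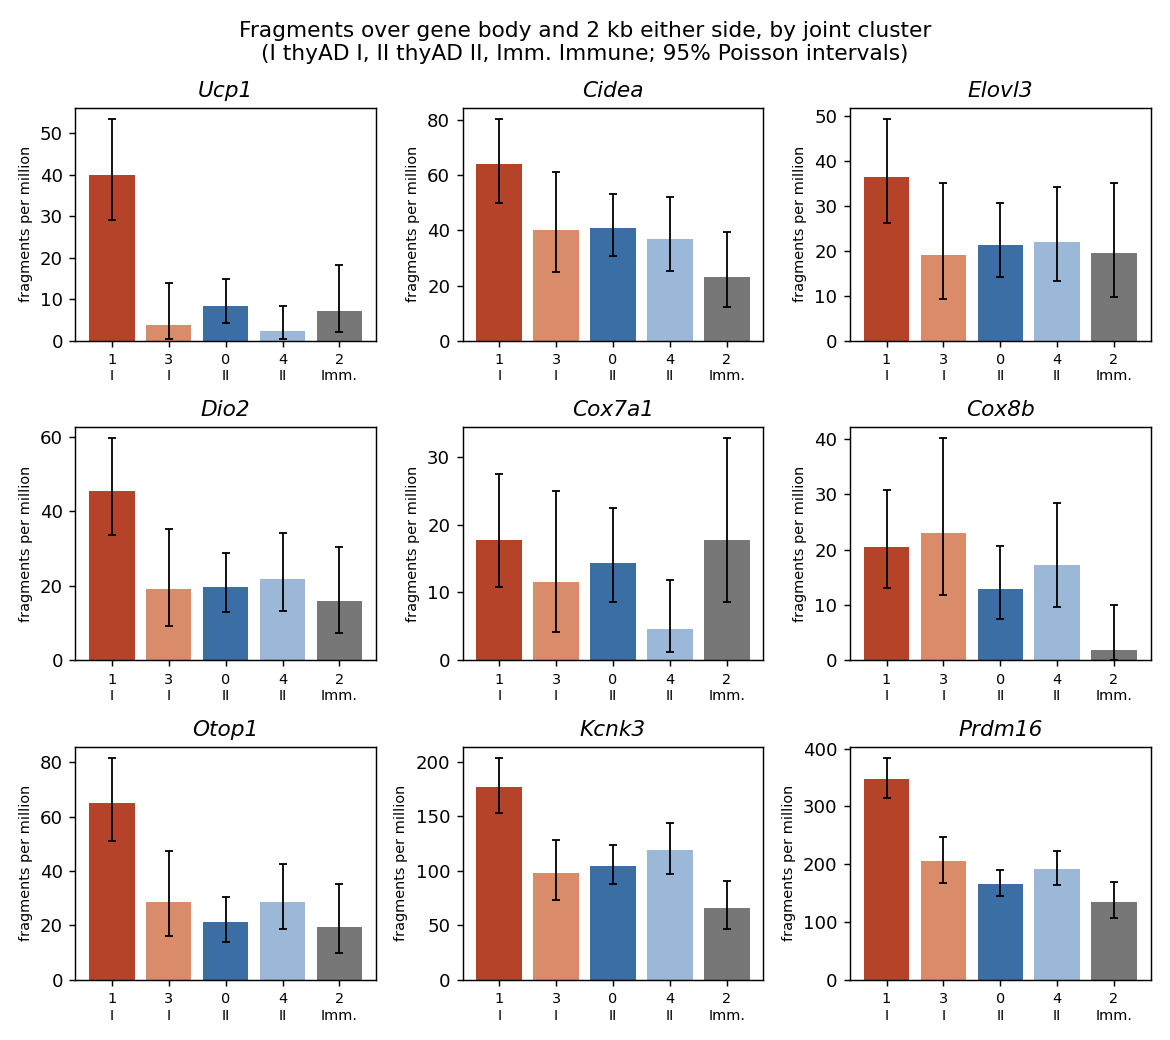
FPM over each member in the joint clusters of the chromatin library, with 95% Poisson intervals; clusters 1 and 3 are thyAD I, 0 and 4 thyAD II and 2 Immune. Ucp1 stands at 40 FPM in cluster 1 and between 2.30 and 8.32 in the others.

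Along the locus, thyAD I fragments gathered upstream of Ucp1 and at its start, and the well-known enhancer of this gene lies a few kilobases upstream. The 1 kb bin from 3 to 2 kb before the start held 16 fragments in thyAD I (9.72 FPM, 5.55 to 15.8) and 9 in thyAD II (4.11 FPM, 1.88 to 7.80). The bin from 6 to 5 kb before it held 13 and 7. No other bin of thyAD II held more fragments than these bins, and the intervals of the first overlap between the types. Both bins lie outside the window of gene body plus 2 kb. The bins on each side of the start held 12 and 9 in thyAD I but 2 and 1 in thyAD II, and 11 and 9 in cluster 1. A fragment that crosses a bin edge is counted in both bins.

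**Figure D5:**
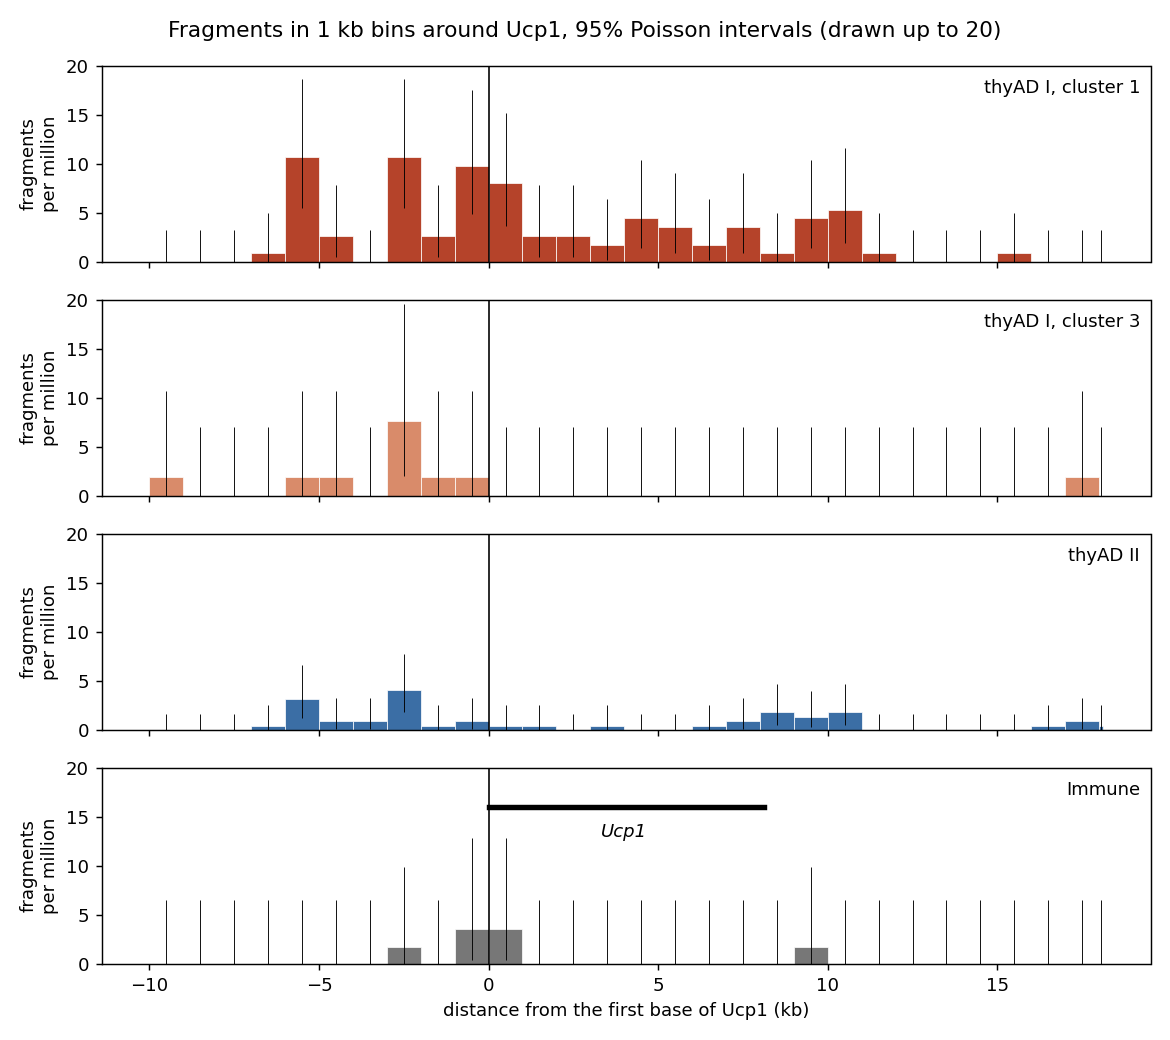
FPM in 1 kb bins from 10 kb before to 10 kb after the Ucp1 gene, by distance from its start in kb, for clusters 1 and 3 of thyAD I, thyAD II and Immune; bars are levels and lines 95% Poisson intervals. In cluster 1 the bins beside the start hold 11 and 9 fragments, and in cluster 3 the gene body beyond its start holds 0.

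In windows of 300 bases from 250 before to 50 after the start, which contain the promoter sequences printed above, Ucp1 had 10 fragments in thyAD I (6.07 FPM, 2.91 to 11.2) and 2 in thyAD II (0.913 FPM, 0.111 to 3.30). Immune nuclei had 2 as well (3.56 FPM, 0.431 to 12.9), an interval that overlaps thyAD I. Dio2 had 20 (12.1 FPM, 7.42 to 18.8) and 8 (3.65 FPM), with 0 in Immune nuclei. Prdm16 had 5 fragments in thyAD I (3.04 FPM) and 8 in thyAD II (3.65 FPM), with overlapping intervals, so no direction can be read. Its window (chr4:154636824-154637123) follows the RefSeq start and lies inside the gene span printed above. It therefore does not cover the outer end of that span. Within 1 kb of the start the differences were 2.73 for Ucp1 (17 against 3 fragments) and 1.69 for Dio2 (37 against 15). The 4 other members with a start in the table ranged from 0.66 for Cox7a1 to 0.97 for Otop1.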

How the data were processed

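The members and gene lists were chosen with earlier results of these data known. The authors deposited UMI counts per gene and barcode, written by cellranger 7.2.0 per the file headers, and the submitters' processing notes name Cell Ranger ARC 2.0.2, Seurat 5.1.0 and mm10. The sources used here do not say whether introns were counted. The class labels per nucleus are the authors', from their deposited table, and doublets were left as the authors treated them. The mitochondrial percent of each barcode was computed here from the deposited counts. The deposited chromatin fragments carry read counts, and each line was taken as 1 fragment, counted in every window or bin that it overlaps.

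UMIs were summed per class, 13 mitochondrial genes were left out of the totals, and ratios used 0.5 UMI added to each sum. A gene was called at a fold of 2 with at least 10 UMIs or fragments over both sides. With 1 library a group there was no test across samples. Genes outside the members were named as the 2 highest and 2 lowest of a list, the 5 most like Ucp1, or the 10 highest in barcodes with 2 Ucp1 UMIs, and a selection of these is printed. Marker genes of other cell types or of adipocytes (Adipoq, Plin1, Cidec, Lep, Retn, Fabp4, Pparg, Lpl, Flt1, Hbb-bs, Themis) and the partners Ucp2, Cox7a2 and Cox8a stand outside this rule. The markers were chosen after their values were seen. Alternatives covered scaling (edgeR 4.0.16 TMM in R 4.3.3), depth, minimum counts, the value added and bin size. Python 3.11.15, NumPy 2.4.6, pandas 2.3.3 and SciPy 1.17.1 were used. The 6-month RNA was not analysed here.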

Additional observations from a re-analysis of the deposited data

How the results depend on the processing

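No paired analysis was possible because each group was 1 library. In all labelled nuclei, the 3 members at least 2-fold higher became 6 with equal weight per nucleus, 6 with no minimum count and 1 with at least 50 UMIs. In Ad I, the 2 became 1 with TMM scaling, 1 with all UMIs as the total, 1 with the unlabelled profile subtracted, 0 in nuclei of at least 1000 UMIs, 7 with no minimum and 0 with at least 50 UMIs, which 0 members reached. Ad Ia alone also gave 1, but this was Prdm16 (1.15) and neither of the 2, while Ad Ib alone gave Cidea and Kcnk3. Without a minimum, 1 thymic UMI against 0 gave 3.92 in Ad I (Otop1) and 3.60 in all labelled nuclei (Elovl3). In Ad I, 0 against 0 gave 2.34 (Elovl3), because the value added to each sum weighs more in the smaller thymic total. Elovl3, at 0 on both sides, was not among the 7 of Ad I. Through members with 1 UMI against 0, the counts of 7 and 6 with no minimum rest partly on this added value. In unlabelled barcodes, the 7 became 2 at 5 to 20% mitochondrial UMIs, where Ucp1 was at 3.59, and 8 at 20% or more, classes chosen after seeing the data. Below 5% no value could be given, with 0 thymic UMIs of every member. All counts of members under an alternative are given without the share of all genes, so they cannot be set against it. Direction turned at 5 to 20% for Cox8b (-2.83), Kcnk3 (-0.97) and Prdm16 (-0.11). Cox8b also turned with all UMIs as the total (-0.18) and in barcodes of at least 500 UMIs (-0.57). Kcnk3 was at -1.40 in all labelled nuclei of at least 1000 UMIs. The cause was not tested. Ucp1 ranged from 3.89 to 6.38 in all labelled nuclei and from 1.98 to 2.73 in chromatin. The bin with most thyAD I fragments began at -3000 bp with 1 kb bins and at -2500 bp with 500 bp bins, and with 2 kb bins 3 bins tied.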
